A study of Homo sapiens with 8 samples.

Results

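Translation initiation and elongation factors were followed at the level of RNA and of ribosome-protected fragments in cells with and without METTL5, the enzyme that places an N6-methyladenosine mark on the RNA of the small ribosomal subunit. The factors were every gene of the translation efficiency (TE) table whose symbol began with EIF1 to EIF6, EEF1 or EEF2, leaving out symbols that began with EIF2AK or EEF2K. This gave 56 genes of the 11244 in the table. Of these, 14 were compared with the other 42 as mRNAs of the terminal oligopyrimidine (TOP) type, namely EEF1A1, EEF2 and 12 subunits of eIF3.

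The libraries came from METTL5-WT cells and from METTL5-KO cells made with CRISPR-Cas9, both labelled HepG2, a human liver cancer line, and both treated with cycloheximide to hold ribosomes on their mRNAs. The labels give exons 2-3 of METTL5 as the part cut out, and per the study the lines were grown from isolated clones, so differences between clones cannot be told apart from the genotype. Each lysate was divided into an input RNA sample and a sample in which micrococcal nuclease left ribosome-protected fragments (RPF), so that 8 libraries fell into 4 groups of 2 replicates. Nothing in the labels says whether replicates were separate cultures, and p-values therefore measure the spread between these lysates.

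Input libraries held 10710226 to 15307257 counts. The RPF libraries held 3970779 and 4592443 reads in METTL5-WT against 8626705 and 9255921 in METTL5-KO, so low genes were least precise in METTL5-WT. METTL5 itself was lower in METTL5-KO, with a log2 change of -1.86 in input (edgeR adjusted p = 7.2e-08) and -3.56 in RPF (limma adjusted p = 1.9e-07), although p = 0.333 is the least an exact permutation test of 2 libraries against 2 can reach, and it was reached in both. The cell type label was checked against 7 genes that define liver cells. Summed over ALB, AFP, APOA1, APOB, SERPINA1, TTR and HNF4A, the counts were 4 and 3 in the METTL5-WT and 6 and 12 in the METTL5-KO input libraries. SERPINA1 and TTR had 0 counts in all 4 libraries, which allows up to 3 counts of each library's total, and ALB had 1 count in a single METTL5-KO library. The cells are therefore called here by their labels only. Among markers of other cells, PTPRC of leukocytes had 1 count in all and PECAM1 of endothelium 2, whereas COL1A1 of fibroblasts had 292 and 344 counts scaled for depth in METTL5-WT against 401 and 470.4 in METTL5-KO. The part of this difference in the results below was not tested.

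Initiation begins when eIF2 brings the initiator tRNA to the small ribosomal subunit, with eIF1, eIF1A and eIF5 guarding the choice of start codon and eIF3 serving as a scaffold. The eIF4 factors bind the mRNA cap and unwind the leader, eIF5B helps the large subunit join, and eIF2B recharges eIF2 with GTP for the next round. During elongation eEF1A delivers aminoacyl-tRNAs, eEF1B recharges eEF1A, and eEF2 moves the ribosome along by a codon. Many of the mRNAs for these factors carry a TOP motif, a cytidine at the cap followed by an unbroken run of pyrimidines, through which mTOR and LARP1 regulate their translation.

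The starts of these mRNAs are shown because the comparison of TOP-type with other members turns on them. RefSeq starts (build GRCh38.p14) were matched for 45 members, and the first was taken where a symbol had several. Starts on the chromosome that holds EEF1D, EIF3E, EIF3H and EIF4EBP1 were left out before matching. These members may have an annotated start, and all genes of that chromosome are absent from the counts of starts below. A TOP start was counted as a C at the annotated start followed by at least 4 further C or T on the transcribed strand. It was found in 12 members (26.7%), in 6 of 9 TOP-type members with a start and in 6 of 36 others, against 5.67% of 9050 genes of the TE table. Each window below spans 30 bases, 10 before the annotated start and 20 from it, hence the end of the promoter and the first bases of exon 1, and the capitals mark the pyrimidine run from the start. The first 6 belong to TOP-type members, the next 6 to other members, and the last 2 to members whose TE rose and whose window holds no such run.

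EEF1A1, chr6:73521013-73521042, minus strand: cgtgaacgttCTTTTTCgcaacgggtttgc
EEF2, chr19:3985444-3985473, minus strand: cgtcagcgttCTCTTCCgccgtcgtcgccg
EIF3D, chr22:36529147-36529176, minus strand: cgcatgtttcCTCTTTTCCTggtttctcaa
EIF3F, chr11:7987327-7987356, plus strand: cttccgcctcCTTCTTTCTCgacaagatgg
EIF3K, chr19:38619178-38619207, plus strand: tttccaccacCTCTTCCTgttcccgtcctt
EIF3M, chr11:32583821-32583850, plus strand: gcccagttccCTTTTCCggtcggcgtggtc
EIF2A, chr3:150546777-150546806, plus strand: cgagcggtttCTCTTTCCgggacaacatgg
EIF2D, chr1:206612446-206612475, minus strand: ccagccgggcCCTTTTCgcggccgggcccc
EIF2S3, chrX:24054946-24054975, plus strand: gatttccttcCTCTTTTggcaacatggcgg
EIF2S3B, chr12:10505880-10505909, plus strand: gactttcttcCTCTTTTggcaacatggcgg
EIF4A2, chr3:186783567-186783596, plus strand: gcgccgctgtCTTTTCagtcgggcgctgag
EIF4B, chr12:53006446-53006475, plus strand: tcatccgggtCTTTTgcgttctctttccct
EIF2S1, chr14:67360318-67360347, plus strand: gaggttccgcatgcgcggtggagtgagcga
EIF5B, chr2:99337379-99337408, plus strand: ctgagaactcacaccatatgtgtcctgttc

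The longest runs, 10 bases, belong to EIF3D and EIF3F, and the shortest, 5 bases, to EIF4B. The run of EIF2S3 and that of its near-identical copy EIF2S3B have the same letters. An annotated start is not a measured one, and where transcription began in these cells was not measured.

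The 56 factors took 1.39 to 1.53% of the reads of the TE table in the input libraries and 1.48 to 1.56% in the RPF libraries. Levels between genes are compared per kilobase, from reads divided by the library's size factor (scaled reads). Exon length counts every annotated exon base of a gene and is not an mRNA length. For EIF3E it was 37761 bases, with a coding sequence of 1335. Input levels per kb therefore depend on how much exon sequence is annotated for a gene. In METTL5-WT the median factor had 211 scaled input reads per kb of exon and 937 scaled RPF reads per kb of coding sequence. EEF2 was highest on both scales, with 3979 and 14876. It was followed on both by EIF5A, the hypusine-bearing factor that relieves stalled ribosomes, with 1708 and 9443. At the other end, EIF2S3B and EIF4E3 had 9.86 and 6.52 scaled RPF reads per kb.

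**Figure D1:**
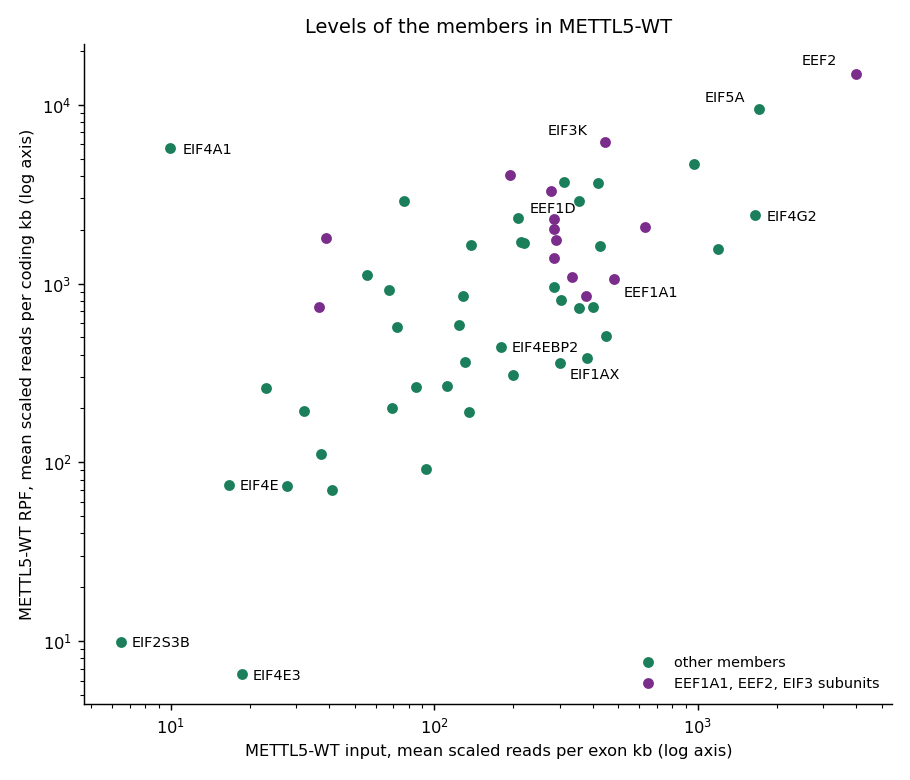
Mean scaled input reads per exon kb against mean scaled RPF reads per coding kb in METTL5-WT for 56 factors, each point 1 gene and both axes logarithmic. EEF2 and EIF5A sit at the upper right, while EIF4A1, at 9.95 input and 5705 RPF, stands far from the other points.

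A few levels are limited by how reads were assigned. EIF4A1, the helicase of the cap-binding complex, had 69 to 82 input reads but 2860 to 7507 RPF reads, and 47.4% of its exon bases are shared with another annotated gene. EEF1A1 had 6426 to 12205 input reads but 609 to 1641 RPF reads. Its near-identical copies elsewhere in the genome took counts equal to 13.4 to 17.9% of its own in input, and uniquely mapped reads alone were counted. EEF1G, a subunit of eEF1B outside the TE table, was listed at 0 in all 4 input libraries, and 99.7% of its exon bases are shared with another gene. EIF3C and its near-identical copy EIF3CL, also outside the table, had 7 to 16 and 0 to 2 input counts. Levels and TE of EIF4A1, EEF1A1 and EIF2S3B are therefore uncertain. No gene of the TE table was at 0 in a library, so a factor at 0 in any library is not among the 56.

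The question put to these data was how RNA, ribosome footprints and their ratio differed between genotypes. Changes are METTL5-KO over METTL5-WT with the SE of the fit, n = 2 libraries a group, and positive values are higher in METTL5-KO. Where values of the genotypes did not overlap, the exact permutation p of 2 libraries against 2 is 0.333. The share of all genes without overlap is not given, so statements on overlap only describe the values. In input, 5 factors rose and 3 fell in METTL5-KO. This is 8 of 56 (14.3%), while 22.4% of 14054 genes tested by edgeR (11.8% upward and 10.6% downward) were called at a Benjamini-Hochberg adjusted p below 0.05. The input count rested on single libraries. With each input library left out in turn, the number of factors called changed, as did the number over all genes. EEF1A2 and EIF4E3 were called in all 4 of these fits, although EIF4E3 lost its call by limma on the TE table (adjusted p = 0.13, and 0.17 with the GC trend removed there). EEF2, EIF3F, EIF3K and EIF4EBP2 were not called without either METTL5-WT replicate.

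Called RPF changes were mostly upward. By limma, 18 factors rose and 2 fell, with 29.3% of 11240 genes called in either direction, 16.2% upward and 13.1% downward, and the median RPF change was 0.23 on the log2(value + 1) scale against 0.02 for all genes. edgeR on the whole reads recovered from the table called 17 of the same 20 factors, with a background of 28.1%, and left out EIF3D, EIF4E3 and EIF5. Leaving out each lysate in turn, 9 factors were called in all 4 fits (EEF1A2, EIF1, EIF2A, EIF2B1, EIF2S1, EIF2S3, EIF3F, EIF3K and EIF4E3) and 3 in 0 (EIF3D, EIF4G3 and EIF5). EIF1B and EIF2B4 were called in 1 of these fits, EIF1AD, EIF2B3 and EIF4A3 in 2, and EIF3E, EIF3H and EIF4E2 in 3, and without METTL5-WT replicate 1 the count was 12. Quantile normalization gave 11 factors higher and 4 lower in RPF, and a median of 0.09. With it, 3173 of 11240 genes were called, 1579 higher and 1594 lower.

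TE, the RPF change relative to the input change, rose in 3 factors, EIF2S1, EIF2A and EIF5B, and fell in 0 by limma, with 4.79% of genes called, 2.7% upward and 2.08% downward. At an unadjusted p below 0.05, 12 factors were higher and 2 lower. The share of all genes at this unadjusted threshold is not given here or elsewhere in the text. Counts at an unadjusted p therefore have no background and cannot be set against the shares at an adjusted p. edgeR called 4 factors, the same 3 and EIF1, with a background of 6.95% (3.11% upward and 3.85% downward), and 0 lower, with 11 higher and 2 lower at an unadjusted p below 0.05. Over all genes, limma called 304 higher and 234 lower for TE, edgeR 346 and 428, and quantile normalization 205 and 281. The median TE change was 0.17 over the factors and 0.02 over all genes, and the median input change 0.01 and -0.01. The factors' median TE change was 0.09 with the trend on coding GC content removed and 0.07 with quantile normalization.

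**Figure D2:**
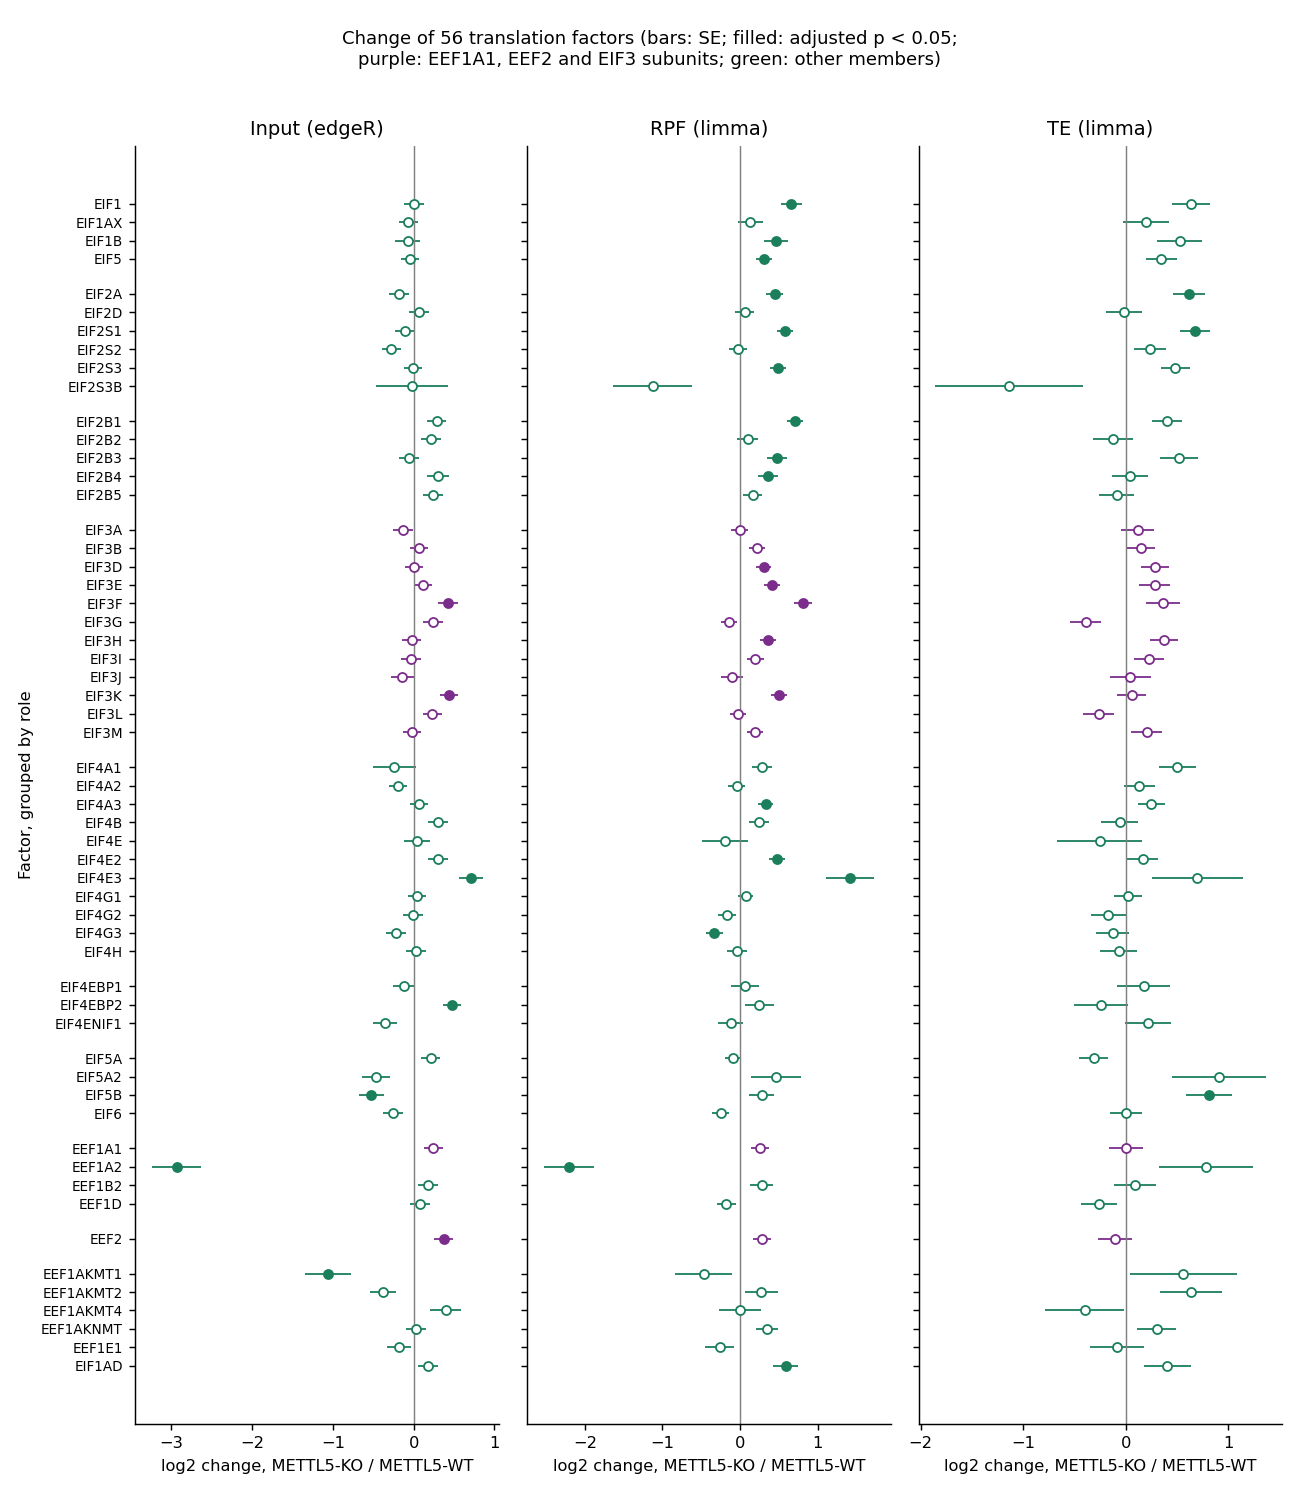
Log2 change, METTL5-KO over METTL5-WT, of each factor in input, RPF and TE, grouped by role from initiation at the top to elongation near the bottom. Points are estimates, bars their SE and filled points passed the test. In RPF, 18 filled points lie right of 0 and 2 left of it, and in TE the filled points are EIF2A, EIF2S1 and EIF5B.

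**Figure D3:**
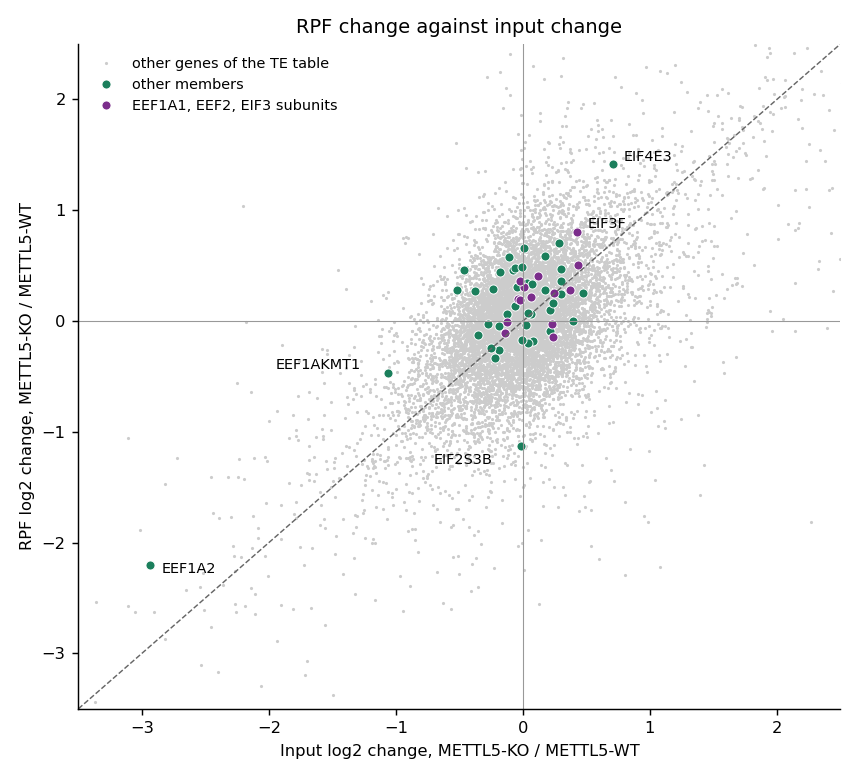
RPF change against input change, both log2 of METTL5-KO over METTL5-WT, for the genes of the TE table (grey) and the factors (green, or purple for the TOP-type ones), with a dashed line where both are equal. Genes beyond the axis limits are not drawn. Most factors lie in a cloud above 0 in RPF and close to 0 in input, while EEF1A2 lies at the lower left.

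Among the factors that select the start codon, 3 of 4 rose in RPF, against 16.2% of all genes, and 0 passed the test for input, where 0 were below an unadjusted p of 0.05 by edgeR. EIF1, which keeps the scanning ribosome open until a start codon is met, had scaled input reads of 1230.3 and 1028 in METTL5-WT against 1247 and 1046 in METTL5-KO. Its scaled RPF reads were 1145 and 1362 in METTL5-WT against 2156 and 1809.7 in METTL5-KO. The RPF groups did not overlap, and RPF rose by 0.66 ± 0.13 (SE) on the log2 scale (limma adjusted p = 0.0012). The TE change was 0.64 ± 0.18, and it passed the test by edgeR and not by limma (adjusted p = 0.033 and 0.056, from 0.019 to 0.24 over the alternatives). EIF1B and EIF5 also rose in RPF, by 0.46 and 0.31, of which edgeR called EIF1B. Leaving out each lysate in turn, EIF1B was called in 1 of 4 fits and EIF5 in 0. EIF1AX had an RPF change of 0.13 ± 0.16.

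The eIF2 group of 6 genes held 2 of the 3 TE rises, EIF2S1 and EIF2A, against 2.7% of all genes, and 0 passed the input test by edgeR, with 1 lower at an unadjusted p below 0.05. EIF2S1 encodes the alpha subunit of eIF2, whose phosphorylation by stress kinases slows initiation. Its scaled input reads were 1944 and 1841 in METTL5-WT against 1908 and 1633 in METTL5-KO, and its scaled RPF reads were 2744 and 2699 against 4287 and 3846. Input values of the genotypes overlapped and RPF values did not. RPF rose 1.49-fold, by 0.58 ± 0.10 on the log2 scale (limma adjusted p = 0.00058), and TE rose by 0.68 ± 0.15 (limma adjusted p = 0.017). EIF2A, which is not a subunit of eIF2 but can bring the initiator tRNA to some mRNAs, had scaled RPF reads of 1499 and 1492 in METTL5-WT against 2106 and 1971 in METTL5-KO. Its scaled input reads were 794 and 721 against 725 and 624. RPF rose by 0.45 ± 0.11 (limma adjusted p = 0.0058) and TE by 0.62 ± 0.16 (limma adjusted p = 0.035). The gamma subunit EIF2S3 rose in RPF by 0.49 ± 0.10, whereas the beta subunit EIF2S2 had an RPF change of -0.02 ± 0.11, so the genes of the 3 subunits did not move alike. The difference between EIF2S2 and its partners was not tested. EIF2D, another carrier of initiator tRNA, had an RPF change of 0.06 ± 0.12, and EIF2S3B, with 5 to 8 RPF reads a library, was too low to measure.

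The TE calls depended on single lysates and on the correction for base composition. Leaving out each lysate in turn, EIF2S1 was called in 1 of 4 fits, EIF2A in 0 and EIF5B in 2. EIF2S1 lost its call without METTL5-WT replicate 1 (0.65), METTL5-WT replicate 2 (0.70) or METTL5-KO replicate 2 (0.64). EIF2A stood between 0.55 and 0.68 in these fits, and EIF5B fell below the threshold without METTL5-WT replicate 1 (0.68) or METTL5-KO replicate 2 (0.59). Across all genes the TE change went with the GC content of the coding sequence. Its median was 0.30 in the lowest of 5 equal groups of genes by GC content and -0.33 in the highest. The coding sequences of EIF5B, EIF2A and EIF2S1 have a GC content of 39.4, 40.5 and 41.4%, all in the lowest group, where the 16 factors had a median of 0.26. Of all genes in that group, 5.61% were called higher for TE, and of the 16 factors 3 were. With the GC trend removed, the TE changes were 0.41 for EIF2S1, 0.34 for EIF2A and 0.53 for EIF5B, and 0 factors were called by limma, with a background of 2.68%, 10 higher and 4 lower at an unadjusted p below 0.05. With each lysate's input and RPF libraries paired as a block, 5 of 56 factors were called (EIF1, EIF2A, EIF2S1, EIF2S3 and EIF5B). Of all genes, 794 of 11240 were called in that fit. With the block and the GC trend removed together, 1 of 56 factors was called, EIF5B (limma adjusted p = 0.040, from 0.0063 to 0.23 over the alternatives). Of all genes, 459 of 11220 were called there.

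**Figure D4:**
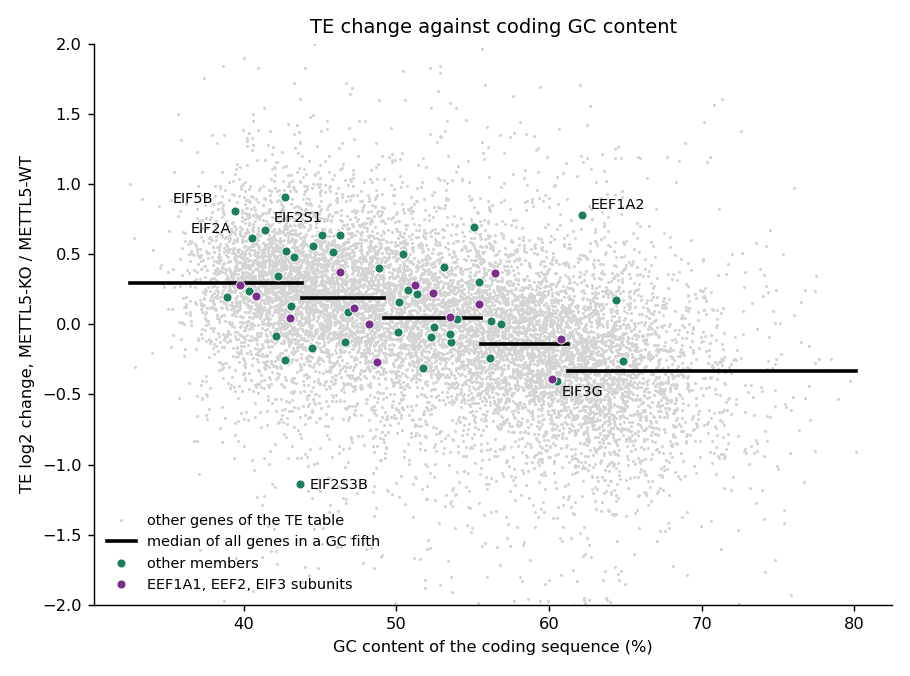
TE change, log2 of METTL5-KO over METTL5-WT, against GC content of the coding sequence for the genes of the TE table (grey) and the factors (green, or purple for the TOP-type ones), with black bars for the median of all genes in each of 5 equal groups by GC content. Genes with a TE change beyond 2 in size are not drawn. The bars step down from 0.30 to -0.33, and EIF5B, EIF2A and EIF2S1 lie above the leftmost bar.

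Of the 5 subunits of eIF2B, the exchange factor that recharges eIF2 with GTP, 3 (EIF2B1, EIF2B3 and EIF2B4) rose in RPF by limma and by edgeR, against 16.2 and 14.4% of all genes. With each lysate left out in turn, EIF2B1 was called in 4 of 4 fits, EIF2B3 in 2 and EIF2B4 in 1. The other subunits, EIF2B2 and EIF2B5, had RPF changes of 0.10 and 0.16, and that of EIF2B2 was -0.08 without METTL5-WT replicate 1 and -0.01 without METTL5-KO replicate 2. EIF2B1, the alpha subunit that senses phosphorylated eIF2, had scaled RPF reads of 1466 and 1679 in METTL5-WT against 2537 and 2571 in METTL5-KO. Its scaled input reads were 775 and 771 against 945 and 956. The groups did not overlap in either measure, but only the RPF rise passed the test (0.70 ± 0.10, limma adjusted p = 9.1e-05), since input gave 0.29 ± 0.12 (edgeR adjusted p = 0.079). TE changes of the 5 subunits ran from -0.12 to 0.52, with 0 called by limma or edgeR and 2 higher at an unadjusted p below 0.05 by each.

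Of the 12 eIF3 subunits in the table, 2 rose in input (11.8% of all genes did) and 5 in RPF (16.2%). For TE, 0 passed the test by limma or edgeR, where 4.79 and 6.95% of all genes did, with 2 higher and 1 lower at an unadjusted p below 0.05 by limma. EIF3F had scaled RPF reads of 798 and 782 in METTL5-WT against 1322 and 1447 in METTL5-KO, and scaled input reads of 602 and 504 against 744 and 756. EIF3K, another peripheral subunit, had scaled RPF reads of 4291 and 3835 against 5381 and 6157, and scaled input reads of 1267 and 1229.9 against 1661 and 1749.6. In both genes the genotypes were apart in input and in RPF. EIF3F rose by 0.43 ± 0.12 in input (edgeR adjusted p = 0.015) and 0.81 ± 0.12 in RPF (limma adjusted p = 8.0e-05). EIF3K rose by 0.44 ± 0.11 in input (edgeR adjusted p = 0.0070) and 0.50 ± 0.10 in RPF (limma adjusted p = 0.0015), so its TE change was close to 0 (0.06 ± 0.14).

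EIF3E, EIF3H and EIF3D rose in RPF with input changes of 0.12, -0.02 and 0.01. EIF3E, a subunit that also contacts eIF4G, had scaled RPF reads of 2566 and 2238 in METTL5-WT against 3162 and 3198 in METTL5-KO (rise of 0.41 ± 0.11, limma adjusted p = 0.0075). EIF3H had 2338 and 2515 against 3128 and 3099.9 (0.36 ± 0.10, limma adjusted p = 0.010). EIF3D, a subunit that can itself bind the cap of some mRNAs, had 1373 and 1429.9 against 1767 and 1693 (0.30 ± 0.10, limma adjusted p = 0.027), and edgeR did not call it. In all 3, which are grouped here by their RPF calls, the RPF values of the genotypes did not overlap. Scaled input reads were 1517 and 1410.4 against 1701 and 1502 for EIF3E, 1887 and 1768 against 1895 and 1733 for EIF3H, and 1484 and 1393 against 1458 and 1459 for EIF3D, and the genotypes overlapped in each.

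The other 7 subunits passed no test. The scaffold subunits EIF3A and EIF3B had scaled RPF reads of 4298 and 4757 against 4772 and 4241, and of 5096 and 5068 against 6043 and 5780.5. Their scaled input reads were 2347 and 2387 against 2429 and 1941, and 5578 and 5803 against 5588 and 6422. EIF3A had an RPF change of -0.01 ± 0.11 and EIF3B of 0.22 ± 0.10, and the genotypes overlapped for EIF3A and not for EIF3B. EIF3G had scaled input reads of 976 and 964 against 1045 and 1266 and scaled RPF reads of 3112 and 3177 against 2795 and 2888. It was higher in input and lower in RPF in both METTL5-KO lysates, and its TE change was the lowest among the eIF3 subunits (-0.39 ± 0.15, limma adjusted p = 0.13). EIF3L, 41.1% of whose exon bases are shared with another gene, had scaled input reads of 1211 and 1246 against 1555 and 1359, and scaled RPF reads of 3609 and 3257 against 3548 and 3210.2. For EIF3L the genotypes were apart in input alone (0.23 ± 0.12, edgeR adjusted p = 0.16). EIF3I had scaled input reads of 1972 and 1803 against 1691 and 2026 and scaled RPF reads of 4046 and 3845 against 4448 and 4601. EIF3M had 2162 and 2149 against 2309 and 1979 in input and 1855 and 2094 against 2196 and 2303 in RPF. EIF3J, which is loosely bound, had 921 and 858 against 964 and 666 in input and 1031 and 1127 against 1069.7 and 940.0 in RPF. Their RPF changes were 0.20 ± 0.11, 0.19 ± 0.11 and -0.10 ± 0.14.

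In the eIF4 group of 11, RPF rose in EIF4A3, EIF4E2 and EIF4E3 (16.2% of all genes rose) and fell in EIF4G3 (13.1% fell). The central cap-binding factors were not among them. EIF4E, the cap-binding protein, was low in these libraries, with scaled RPF reads of 57.0 and 40.1 in METTL5-WT against 55.5 and 31.2 in METTL5-KO and scaled input reads of 262 and 207 against 276 and 214. EIF4G1, the scaffold of the cap complex, had scaled RPF reads of 7443 and 8026 against 8395 and 7886 and scaled input reads of 3681 and 3749 against 3698 and 4001. Both overlapped between genotypes in RPF, with changes of -0.20 ± 0.29 and 0.07 ± 0.10. EIF4A1 had scaled RPF reads of 6794 and 7103 against 9053 and 7906, which did not overlap (0.28 ± 0.13, limma adjusted p = 0.10), and scaled input reads of 54.5 and 49.0 against 47.6 and 41.2. EIF4A3, a helicase of the exon junction complex despite its name, and EIF4E2, a cap-binding relative of EIF4E linked to repression, rose by 0.33 and 0.47 in RPF. EIF4G3, a relative of EIF4G1, fell by 0.33 (limma adjusted p = 0.033). EIF4E3, a further cap-binding relative, rose in input from scaled reads of 202 and 199.7 to 349.6 and 314 (0.71 ± 0.14, edgeR adjusted p = 0.00077). In RPF it had 2 and 2 reads in METTL5-WT against 11 and 12 in METTL5-KO, a depth-scaled ratio of 3.06 with an exact 95% interval of 1.05 to 12.2 that covers counting error only. limma called EIF4E3 for RPF and edgeR did not.

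Of the 3 proteins that bind eIF4E, EIF4EBP2, a repressor released by mTOR, rose in input by 0.48 ± 0.11 (edgeR adjusted p = 0.0038) and not detectably in RPF (0.25 ± 0.19), where it had 50 to 173 reads a library. EIF4EBP1, its better known relative, had scaled input reads of 369.7 and 338 in METTL5-WT against 306 and 349 in METTL5-KO and scaled RPF reads of 287 and 237 against 228 and 326. The values of EIF4EBP1 overlapped in both. EIF4ENIF1, which carries eIF4E into the nucleus, had an input change of -0.36 ± 0.15 (edgeR adjusted p = 0.093).

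EIF5B, the GTPase that joins the ribosomal subunits, was the one factor that fell in input and rose in TE. Its scaled input reads were 938 and 826 in METTL5-WT against 756 and 487 in METTL5-KO, and its scaled RPF reads were 955 and 1005 against 1267 and 1111. The genotypes were apart in both, in opposite directions, and the replicates of METTL5-KO input differed more than those of any other group of this gene. The input fall was 0.52 on the log2 scale (SE 0.15, edgeR adjusted p = 0.015) and shrank to -0.24 without METTL5-KO replicate 2, no longer called, as it also was not without METTL5-WT replicate 1 (-0.42). The RPF rise did not pass the test (0.28 ± 0.16, limma adjusted p = 0.20), and TE rose by 0.81 ± 0.22 (limma adjusted p = 0.046). EIF5A had scaled input reads of 4667 and 4506 against 5035 and 5680.0 and scaled RPF reads of 4528 and 4197 against 4079 and 4101. EIF6, which keeps the ribosomal subunits apart, had 1533 and 1630.0 against 1189 and 1487 in input and 3507 and 3311 against 2861 and 2884 in RPF. For EIF5A the genotypes were apart in opposite directions, and for EIF6 both measures were lower in METTL5-KO, but neither passed a test (TE changes of -0.31 ± 0.14 and 0.00 ± 0.16).

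**Figure D5:**
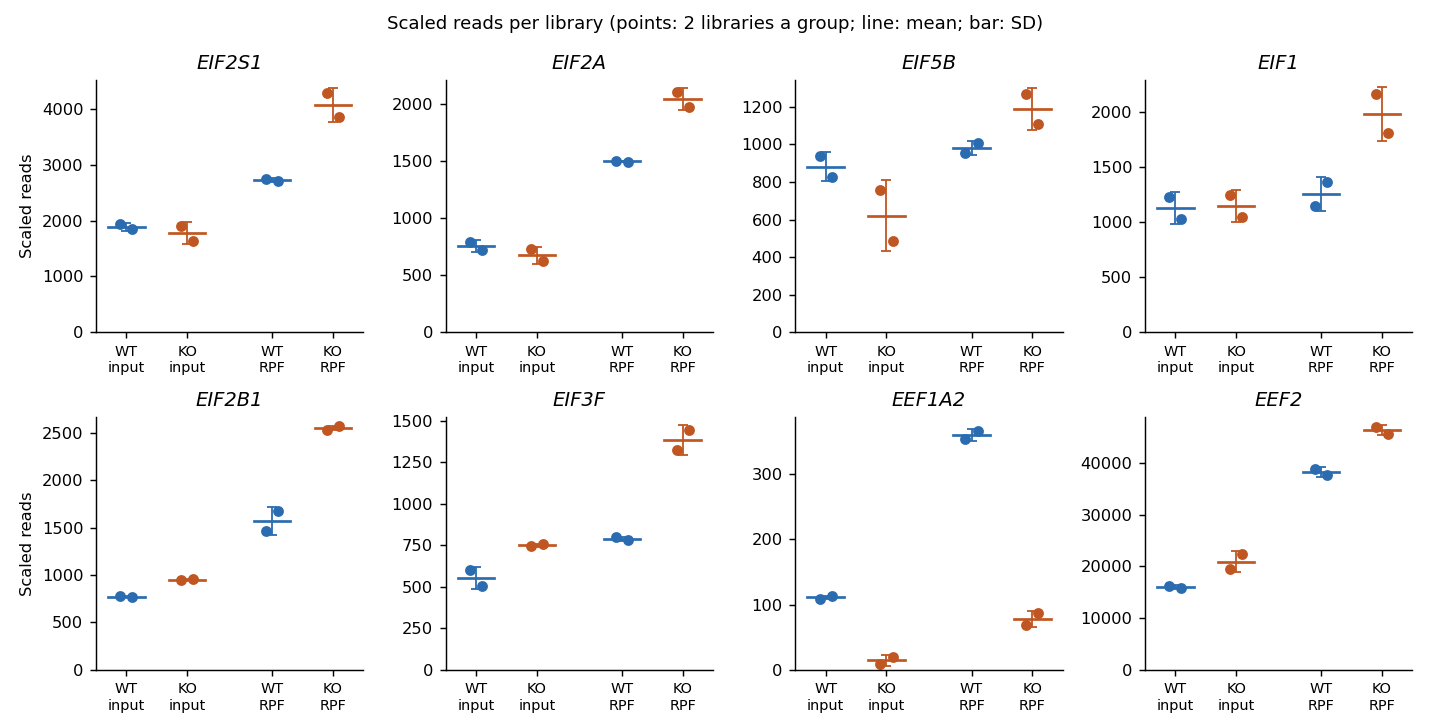
Scaled reads of 8 factors in each library, with input and RPF of METTL5-WT (blue) and METTL5-KO (orange) side by side, 2 points a group, a line for the mean and a bar for the SD. For EIF2S1, EIF2A and EIF1 the groups separate in RPF and overlap or nearly meet in input, and EEF1A2 is lower in METTL5-KO in both.

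Of the 5 elongation factors, EEF1A2 fell in input and RPF and EEF2 rose in input. Over all genes, 22.4% were called in input and 29.3% in RPF. EEF1A2, the form of eEF1A typical of muscle and neurons, had 160 and 159 input reads in METTL5-WT against 14 and 40 in METTL5-KO, and 149 and 183 RPF reads against 57 and 78 from libraries of greater depth. Scaled, input was 109 and 113 against 8.44 and 20.1, and RPF was 354 and 367 against 68.7 and 87.0. The groups were far apart in both, and EEF1A2 fell by 2.93 on the log2 scale in input (SE 0.31, edgeR adjusted p = 1.6e-07) and fell by 2.21 in RPF (SE 0.33, limma adjusted p = 9.8e-05), while TE changed by 0.78 ± 0.46 (limma adjusted p = 0.33). It was called in every alternative for both measures. EEF1A1, the common form, had scaled input reads of 5140.4 and 4566 against 5455 and 6127 and scaled RPF reads of 1447 and 1490.1 against 1979 and 1556, which did not overlap in either, and neither change passed the test (0.24 ± 0.12 and 0.26 ± 0.12). EEF1B2 and EEF1D, subunits of the exchange factor eEF1B, had RPF changes of 0.28 ± 0.15 and -0.18 ± 0.13. Scaled input reads of EEF1B2 were 758 and 692 against 789 and 865, and its scaled RPF reads were 289.8 and 227 against 333 and 289.9. EEF1D had 1985 and 1936 against 1857 and 2329.9 in input and 5058 and 3929 against 3825 and 4064 in RPF, with overlap in both.

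EEF2 rose in input, from scaled reads of 16222 and 15775 to 19438 and 22358 (0.37 ± 0.12, edgeR adjusted p = 0.026). Its scaled RPF reads were 38921 and 37661 in METTL5-WT against 47068 and 45721 in METTL5-KO, again without overlap (0.28 ± 0.12, limma adjusted p = 0.085). TE of EEF2 thus differed by -0.11 ± 0.16, less than its error. The input call was lost without either METTL5-WT replicate, at 0.39 and 0.36.

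Of 6 genes matched by name that are not themselves translation factors, EIF1AD rose in RPF, from scaled reads of 252 and 327 to 482 and 388 (0.59 ± 0.16, limma adjusted p = 0.010), with scaled input reads of 422 and 407 against 436 and 509. EEF1AKMT1, a methyltransferase of eEF1A, fell in input by 1.06 (SE 0.29, edgeR adjusted p = 0.0091), from 82 and 76 reads to 41 and 56. The call of EEF1AKMT1 was lost without METTL5-WT replicate 1 (adjusted p = 0.066), by DESeq2 (0.067) and by limma on the TE table (0.063, and 0.094 with the GC trend removed there). The other 4, of which 3 are methyltransferases of eEF1A and EEF1E1 belongs to the complex of aminoacyl-tRNA synthetases, passed no test.

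The neighbours of 2 of the factors that fell in input were also lower. Over all genes tested for input, 11.8% rose and 10.6% fell. Among 40 genes around EEF1A2 on chromosome 20, the median input change was -0.77 and 25 fell while 2 rose. Among 29 genes around EEF1AKMT1 on chromosome 13 it was -0.90, and 18 fell. Around EIF3F on chromosome 11, 24 of 40 neighbours rose and the median was 0.44, close to the change of EIF3F itself. For EIF5B, EIF4E3 and EIF4EBP2 the median of 40 neighbours lay between -0.09 and -0.02, and for EEF2 and EIF3K, both on chromosome 19, it was 0.24 and 0.32. Around EEF2, 12 neighbours rose and 2 fell, and around EIF3K 8 rose and 1 fell. Around EIF5B 4 rose and 5 fell, around EIF4E3 3 and 5, and around EIF4EBP2 1 and 4. The part of these neighbourhoods in the changes was not tested.

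The comparison of TOP-type with other members gave small differences. The median input change was 0.09 over the 14 TOP-type members and -0.01 over the other 42, the median RPF change was 0.24 and 0.20, and the median TE change was 0.13 and 0.18. In RPF, 5 of 14 and 15 of 42 were called, which is 35.7% of each, with 29.3% of all genes called. In TE, 0 of 14 and 3 of 42 were called by limma, and 0 of 14 and 4 of 42 by edgeR, and of the 14, 2 were higher and 1 lower at an unadjusted p below 0.05 by limma. The differences of the medians, TOP-type minus other, were 0.096 for input, 0.033 for RPF and -0.053 for TE. To show the spread between lysates, each gene was centred on its mean and the difference was taken in each lysate. This is a different measure, so its mean difference between genotypes need not equal the differences above. For input the difference was -0.06 and -0.07 in METTL5-WT against 0.08 and 0.07 in METTL5-KO. Both METTL5-KO lysates were higher, by a mean of 0.138 with an SD between replicates of 0.005. For RPF it was -0.03 and -0.02 against -0.01 and 0.08. Both METTL5-KO lysates were again higher, by a mean of 0.061 with an SD between replicates of 0.042. The closest RPF values of the genotypes, -0.019 and -0.007, lay nearer to each other than this SD. For TE it was -0.04 and 0.04 against -0.08 and 0.04, which overlapped, with a mean difference of -0.023 and an SD of 0.068.

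Which genes count as TOP mRNAs moved these medians. With a textbook list of TOP mRNAs (EEF1A1, EEF1B2, EEF1D, EEF2, EIF3E, EIF3F, EIF3H and EIF4B of the table), the difference was 0.22 for input, 0.10 for RPF and -0.14 for TE. With the TOP starts shown above, 12 members against 33 with another start, it was 0.029, 0.018 and -0.069. The starts leave out EEF1D, EIF3E and EIF3H of the textbook list and every other gene of their chromosome. Over 513 genes of the TE table with such a start, the median change was -0.00 in input, 0.05 in RPF and 0.06 in TE, close to those of all genes, with 6.63% called for TE. Of the 12 members with a TOP start, 5 rose in RPF (EIF2A, EIF2S3, EIF3D, EIF3F and EIF3K) and 1 in TE (EIF2A). Of the 33 members with another start, 11 rose in RPF and 2 in TE. Among the 513 genes with a TOP start, 90 rose in RPF and 16 in TE. Of all genes, 16.2% rose in RPF and 2.7% in TE. The range of the TOP-type changes lay inside that of the other members in input, from -0.14 to 0.44 within -2.93 to 0.71. The same held in RPF, from -0.15 to 0.81 within -2.21 to 1.42, and in TE, from -0.39 to 0.37 within -1.14 to 0.91. In RPF this rested on EIF4E3, which had 4 METTL5-WT reads in all. The next highest of the other members, EIF2B1 at 0.70, lay below EIF3F at 0.81. In TE the lower end was EIF2S3B, which was too low to measure, and the next lowest value was -0.40.

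Among 45 other translation genes of the TE table (from a list of 47 kinases, helicases, poly(A)-binding proteins, recycling factors and modifying enzymes), 7 rose and 3 fell in input, 5 rose and 4 fell in RPF, and 1 rose in TE. These shares, 22.2, 20.0 and 2.22%, were at or below those of all genes. EIF2AK2, the eIF2 kinase that senses double-stranded RNA, rose most, with scaled input reads of 1806 and 1791 in METTL5-WT against 3359 and 2700.4 in METTL5-KO (0.74 ± 0.12, edgeR adjusted p = 9.0e-05) and an RPF rise of 1.04 ± 0.11. PELO, a ribosome rescue factor, went from 264 and 223 to 394 and 382 in input (0.66 ± 0.14, edgeR adjusted p = 0.0014), with an RPF rise of 0.90 ± 0.15. RPS6KB2, a kinase downstream of mTOR, went from 484 and 507 to 632 and 826 in input (0.55 ± 0.13, edgeR adjusted p = 0.0041), whereas its RPF changed by -0.04 ± 0.14. DDX3X, a helicase that unwinds leaders, was the TE call, with scaled RPF reads of 6979.8 and 6704 against 9300.3 and 8873 and scaled input reads of 7096 and 7151 against 6659 and 6016 (TE rise of 0.58 ± 0.14, limma adjusted p = 0.028). The RPF and input values of DDX3X were apart in opposite directions. LARP1, which binds TOP mRNAs, fell in RPF by 0.31 (SE 0.10, limma adjusted p = 0.026), with an input change of 0.13 ± 0.11. With each lysate left out in turn, the RPF call of LARP1 was made in 0 of 4 fits and the TE call of DDX3X in 0. The input calls of EIF2AK2, PELO and RPS6KB2 were made in 4, 3 and 2 of 4 fits.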

How the data were processed

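The members, gene lists and comparisons were chosen with earlier results of these data known. Input reads were trimmed (BBDuk) and mapped to hg38 (STAR) by the authors, whose deposited counts per gene are uniquely mapped, strand-aware reads from featureCounts. For RPF they kept fragments of 25 to 34 nt, removed ribosomal RNA and used RiboToolkit. The signal values deposited in the TE table, named RPKM by the authors, were whole reads divided by a size factor per library (100% of values whole, within 0.001 of the value), so the design's assumption of RPKM did not hold and its log-scale test was kept. The authors' own log2 fold change, p-value and adjusted p-value of TE, also deposited, were not used.

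For input, the quasi-likelihood test of edgeR 4.0.16 was run on counts scaled by TMM, and filterByExpr left 14054 genes. For RPF and TE, a limma 3.58.1 model of 4 group means (8 libraries, trended eBayes) was fitted to log2(value + 1) of 11240 genes whose mean reached 1 in input and in RPF, and TE was the interaction. Fold changes on this scale understate those of low genes. Tests were two-sided, with Benjamini-Hochberg adjustment over all genes. The models were also run on simulated counts. Changes planted there were larger than most of those reported here and unrelated to GC content, so these runs cannot judge calls of this size. Alternatives were edgeR and DESeq2 1.42.0 on the recovered reads, other filters, scalings and pseudocounts, and removal of trends on coding GC content or length (GENCODE 44). The floor was 3 counts. R 4.3.3 and Python 3.11.15 were used.

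Genes named with values in every library were the TOP-type members, those called for TE, the largest called RPF change of each role, a list of core factors, and of the other translation genes the TE call and the 3 largest called input changes. Other members, and LARP1, were named after their values were seen. Each lysate gave an input and an RPF library, whose deviations correlated at -0.02 in METTL5-WT and 0.05 in METTL5-KO.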

Additional observations from a re-analysis of the deposited data

How the results depend on the processing

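Over 62 genes, 2846 values were recomputed under the alternatives. Of these, 2652 stayed on their side of the threshold, 120 lost a call, 74 gained one and 0 called changes reversed. A further 160 uncalled values changed sign, all with a main change of at most 0.46 in size. The cause of the following changes was not tested. Factors called for input were 8, and 2 to 31 with 1 library left out. All genes called for input were 3149, with 1947 by limma on the TE table, 1950 with the GC trend removed there, and 1220 to 5474 with 1 library left out. For RPF, 20 factors were called, with 11 without the variance trend and 12 to 16 with 1 lysate left out, and all genes went from 3288 to between 1983 and 2773. For TE, 3 factors became 0 with quantile normalization, with no variance trend or after removal of the GC trend, 5 by DESeq2, and 0 to 2 with 1 lysate left out. At an unadjusted p below 0.05, limma had 9 higher and 1 lower without the variance trend and 9 higher and 4 lower with quantile normalization. These counts have no background and do not show that the calls persisted. All genes called for TE went from 538 to 837 by DESeq2, 301 with the GC trend removed, 1 with no variance trend, and 4 to 265 with 1 lysate left out.

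The replicate block on the lysate called 5 factors for TE, the block on the number shared by the genotypes 5, and the lysate block with the GC trend removed 1. Over all genes these fits called 794, 588 and 459. Equal numbers did not pair libraries across genotypes (correlations of 0.04 in input and -0.00 in RPF). The block on the number called 9 factors for input and 20 for RPF, with 3554 and 3318 genes called over all genes.

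The input difference of TOP-type and other members, 0.096, was 0.068 with the GC trend removed in the TE table, 0.22 with the textbook list, 0.029 with TOP starts, 0.063 without EEF1A1, EIF4A1 and EIF2S3B, and 0.085 to 0.18 with 1 library left out. The RPF difference, 0.033, was -0.023 with quantile normalization, 0.079 with the length trend removed, 0.10 with the textbook list and 0.019 to 0.15 with 1 lysate left out. The TE difference, -0.053, was -0.15 with quantile normalization, 0.038 with the length trend removed, -0.14 with the textbook list and -0.10 to -0.019 with 1 lysate left out. The alternatives on TOP starts, on these 3 genes, on input in the TE table and on edgeR in RPF libraries alone were chosen after seeing the data. With 2 lysates a group, a lysate left out leaves a lone sample that is assumed to vary like the others, and METTL5-WT RPF depth limits EIF4E, EIF4E3 and EIF2S3B.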
